A study of Mus musculus with 14 samples.

Results

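Abca1, Abcg1 and Eepd1 encode proteins by which macrophages release sterol, and their mRNA levels were followed across 7 treatment groups of mouse macrophages. The genes were taken by symbol from the annotation of the array platform. Each was measured by 1 probe, so they were 3 of 8841 named genes and 3 of the 10012 probes on the array, and all 3 passed the filter on low values that kept 9584 probes. The 14 microarrays, 2 in each group, held RNA of peritoneal macrophages that thioglycollate had drawn into the peritoneum of female C57BL/6 mice aged 6 weeks. One group was labelled as without treatment and is called untreated. Others received LPS, a component of the bacterial cell wall that the receptor TLR4 recognises, or poly(I:C) (PolyIC in the labels), a synthetic double-stranded RNA that TLR3 recognises. In the remaining 4 groups LPS or poly(I:C) was combined with GW3965, which activates the liver X receptors (LXRs), or with GW7845, which activates PPARγ. All 7 groups shared strain, sex, age and thioglycollate elicitation. No group had an agonist without a stimulus. Neither concentrations nor durations of treatment are stated in the labels. The series describes its 2 arrays of a condition as biological replicates and does not say whether a replicate was 1 mouse or a pool. Its title concerns how PPARγ and LXRs differ in repressing Toll-like receptor signalling.

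LXRs are nuclear receptors that pair with retinoid X receptors and switch on their targets when bound by oxysterols, which are oxidised forms of cholesterol. In cholesterol-loaded macrophages they are known for raising the genes of cholesterol efflux. ABCA1 hands cholesterol and phospholipid to lipid-poor apolipoprotein A-I, ABCG1 promotes the transfer of cholesterol to high-density lipoprotein, and EEPD1 has been described as an LXR-induced protein needed for ABCA1 to be stable and present on the plasma membrane. Toll-like receptor signalling is known to interfere with the induction of LXR targets in macrophages. PPARγ is known to act on cholesterol efflux in part by raising the LXR gene Nr1h3.

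For Abca1 and Eepd1 the 250 bases upstream of the annotated start (RefSeq, GRCm38.p6) are shown, because the genes moved together under the LXR agonist and LXRs bind repeats of AGGTCA spaced by 4 bases. Abcg1 rose with the agonist too but had no window to show. The window of Abca1 is chr4:53159896-53160145 on the minus strand and that of Eepd1 is chr9:25481347-25481596 on the plus strand. Both are printed 5′ to 3′ on the strand of the gene, ending at the base before the start.
Abca1: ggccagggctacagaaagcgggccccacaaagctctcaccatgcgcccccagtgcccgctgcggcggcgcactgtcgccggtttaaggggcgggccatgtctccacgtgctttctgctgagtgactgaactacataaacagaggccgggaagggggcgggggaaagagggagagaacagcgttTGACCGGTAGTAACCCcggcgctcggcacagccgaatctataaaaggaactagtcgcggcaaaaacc
Eepd1: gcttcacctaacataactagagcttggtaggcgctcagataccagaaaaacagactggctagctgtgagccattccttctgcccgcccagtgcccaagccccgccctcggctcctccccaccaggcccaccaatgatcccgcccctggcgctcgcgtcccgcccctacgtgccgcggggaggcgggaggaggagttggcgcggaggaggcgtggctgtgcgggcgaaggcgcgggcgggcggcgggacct
The capitals mark the match to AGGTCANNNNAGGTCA, searched on both strands with at most 3 mismatches among its 12 defined letters. Abca1 held 1 match, at chr4:53159947-53159962, 67 to 52 bases before the start and on the opposite strand, with 9 of 12 letters matched. Eepd1 held none in this window. Of 32851 promoter windows of the same length, 18.5% held such a match. A match describes the sequence only.

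Levels are given as the authors' scaled intensities, in which the median probe of each array was found to lie at about 1. Differences are on the log2 scale, where +1 is a doubling. Each adjusted p comes from limma, two-sided, with Benjamini-Hochberg adjustment over 9584 probes, and a difference is called where it is under 0.05. The arrays fell into 2 sets of 7 with 1 array of each group in each. In set A the 10th percentile of intensity lay between 0.137 and 0.271 and in set B between 0.0549 and 0.0833, and some probes were missing from 1 set entirely (29 from set A and 30 from set B). A second fit with the set as a block, called the array-set fit, leaves the differences as they are and changes their errors. Without the block, the errors include any shift between the sets. Within groups, the Spearman correlation of the 2 arrays was 0.929 to 0.966. The lowest belonged to GW7845 with poly(I:C), whose replicate 1 stood apart from its partner in Abcg1, so comparisons of the 3 genes that use it are given with and without it. The 8 measured macrophage markers had summed intensities of 2256 to 4818, against at most 60.8 for the 7 measured neutrophil markers and 35.5 for the 8 measured B cell markers. In such bulk RNA, fewer cells of a type and less RNA per cell cannot be told apart.

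Abca1, the phospholipid and cholesterol exporter, had its lowest intensities without treatment, 0.140 and 0.204 in replicates 1 and 2. It lay at 0.336 and 0.838 with LPS and at 0.482 and 0.674 with poly(I:C). Adding GW7845 gave 0.697 and 0.402 with LPS and 0.572 and 0.317 with poly(I:C). All 8 of these stimulated arrays lay above both untreated arrays, and the 4 groups overlapped one another. With GW3965 the intensity was 2.17 and 2.45 under LPS and 3.94 and 2.65 under poly(I:C). These 4 arrays lay above all the others. The probe was dim: the untreated values stood at percentiles 10.6 and 31.8 of their arrays, so the size of its differences from untreated cells is approximate.

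Abcg1, the exporter to high-density lipoprotein, was at 14.0 and 17.9 without treatment. It was at 8.67 and 10.2 with LPS and at 11.1 and 12.2 with poly(I:C), and all 4 arrays lay below both untreated ones. Values with GW7845 were 10.9 and 13.5 under LPS and 5.48 and 13.2 under poly(I:C). The latter pair had the widest spread of any group for this gene, and its lower value, replicate 1, was the lowest of the 14 arrays. With GW3965 the intensities were 51.2 and 40.7 under LPS and 64.0 and 59.4 under poly(I:C). As for Abca1, these 4 arrays lay above the other 10.

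Eepd1, the gene tied to ABCA1 at the cell surface, was at 10.9 and 12.5 in untreated cells. It was at 2.64 and 2.52 with LPS and at 1.99 and 2.76 with poly(I:C), far below untreated cells and overlapping each other. With GW7845 it was at 4.13 and 3.60 under LPS and 3.22 and 2.55 under poly(I:C). All 8 stimulated arrays without GW3965 lay below the untreated ones. With GW3965 it was at 15.9 and 16.3 under LPS and 12.7 and 15.3 under poly(I:C), and these 4 lay above both untreated arrays, narrowly under poly(I:C).

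**Figure D1:**
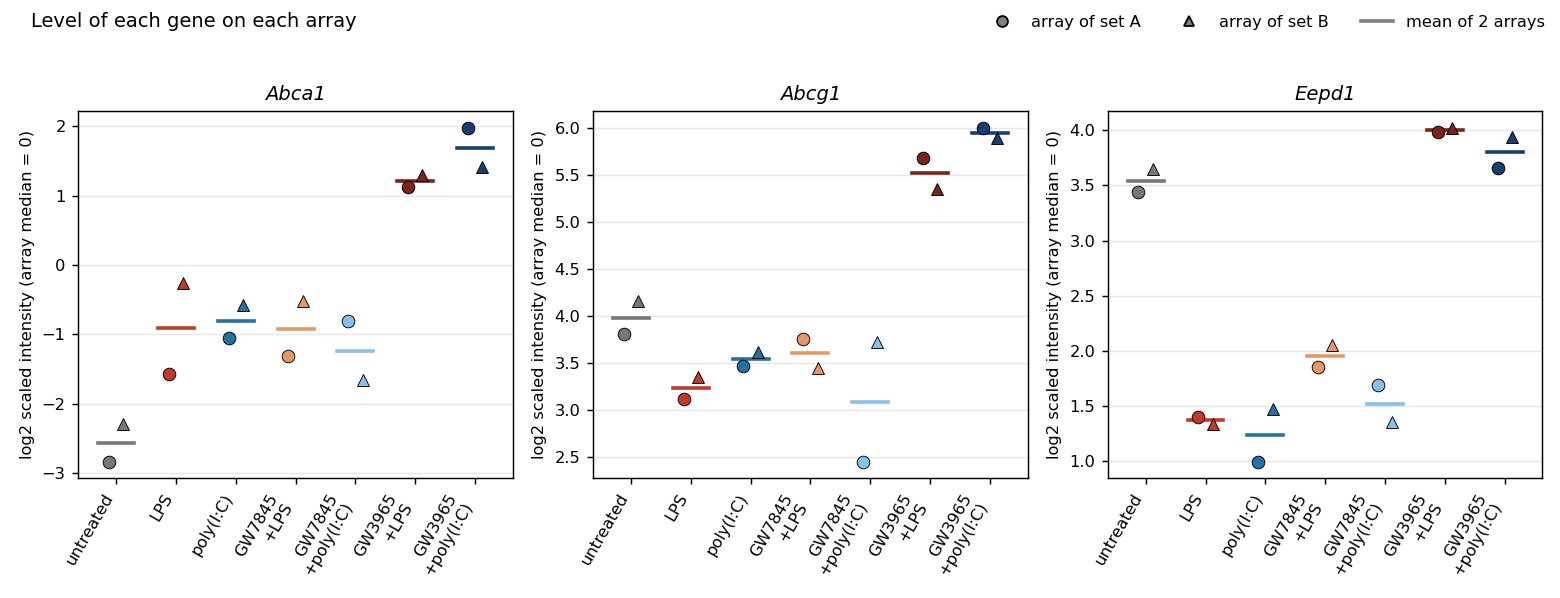
Log2 scaled intensity of Abca1, Abcg1 and Eepd1 (vertical axes, array median at 0, axis ranges differ) in the 7 groups (horizontal axes). Circles and triangles are single arrays of set A and set B and short lines are means of 2 arrays; the 4 arrays with GW3965 are the highest for each gene, and Eepd1 with LPS or poly(I:C) alone lies well below its untreated level.

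In order of level, Abca1 rose from untreated through GW7845 with poly(I:C), GW7845 with LPS, LPS and poly(I:C) to GW3965 with LPS and GW3965 with poly(I:C). Neighbours in that order differed beyond their spread at 2 of the 6 steps, the first (+1.33, 95% interval 0.19 to 2.47) and that from poly(I:C) to GW3965 with LPS (+2.02, 0.88 to 3.16). For Abcg1 the order was GW7845 with poly(I:C), LPS, poly(I:C), GW7845 with LPS, untreated, GW3965 with LPS and GW3965 with poly(I:C). Only the step from untreated to GW3965 with LPS exceeded the spread (+1.53, 0.68 to 2.38). For Eepd1 it was poly(I:C), LPS, GW7845 with poly(I:C), GW7845 with LPS, untreated, GW3965 with poly(I:C) and GW3965 with LPS, and the single step beyond the spread led from GW7845 with LPS to untreated (+1.60, 0.91 to 2.29). These intervals are not corrected for the number of steps. Untreated cells thus held the bottom of the order for Abca1 and a place next to the GW3965 groups for the other two.

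The first comparison asked what each stimulus did to the efflux genes without an agonist. Eepd1 fell to 22.1% of its untreated level with LPS, a difference of -2.18 (SE 0.32, adjusted p = 0.00052), and to 20.1% with poly(I:C), -2.31 (SE 0.32, adjusted p = 0.00027). The fall was seen in both array sets under both stimuli, -2.04 and -2.31 with LPS and -2.45 and -2.18 with poly(I:C). It kept its call in every alternative run, including the omission of any 1 array. The shares of all probes called were 7.8% with LPS (5.21% higher and 2.6% lower) and 8.86% with poly(I:C) (6.08% higher and 2.78% lower), and 1 of the 3 genes was called in each. Both comparisons share the untreated arrays. The 7 neutrophil markers summed to 16.7 to 29.0 untreated, 31.7 to 47.1 with LPS and 24.1 to 51.2 with poly(I:C), 1 of the 6 tested being called higher with each stimulus, and their part in the result was not tested.

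Abca1 went the other way. It was +1.65 with LPS (SE 0.53, adjusted p = 0.084) and +1.75 with poly(I:C) (SE 0.53, adjusted p = 0.058), or 3.14-fold and 3.37-fold. Neither passed in limma without a block, and both passed in the array-set fit (adjusted p = 0.023 and 0.015), in which 17.8% and 18.7% of probes were called. With the replicate number as a block they passed as well (adjusted p = 0.049 and 0.033). Without LPS 1 the LPS difference was +2.31 and passed without a block (adjusted p = 0.040). Both arrays lay above both untreated ones, as did those of 21.6% of probes with LPS and 20.5% with poly(I:C). Abcg1 was -0.75 with LPS (SE 0.39, 95% interval -1.60 to 0.10, adjusted p = 0.38) and -0.44 with poly(I:C) (SE 0.39, interval -1.29 to 0.41, adjusted p = 0.74), and passed in neither fit. Its arrays lay below both untreated ones with each stimulus, as did those of 18.1% and 17% of probes. The 3 genes therefore did not share a direction under either stimulus.

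LPS and poly(I:C) were then set against each other. The differences, poly(I:C) minus LPS, were +0.10 for Abca1 (95% interval -1.04 to 1.24), +0.31 for Abcg1 (-0.54 to 1.16) and -0.14 for Eepd1 (-0.83 to 0.55). None was called, against 0.0104% of all probes. For Abcg1 both poly(I:C) arrays lay above both LPS arrays, as for 8.85% of probes (7.07% lay below), and for the other genes the arrays overlapped.

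GW3965 raised all 3 genes. Over both stimuli together, its mean effect was +2.61 for Eepd1 (SE 0.23, adjusted p = 0.00019), +2.34 for Abcg1 (SE 0.28, adjusted p = 0.0029) and +2.31 for Abca1 (SE 0.38, adjusted p = 0.025), that is 6.09-fold, 5.07-fold and 4.97-fold. All 3 were called, where limma called 0.198% of probes, 19 in all and 11 of them higher (0.115%). Ordered by p among the 9584 probes, Eepd1 was number 1, Abcg1 number 3 and Abca1 number 10. The 3 genes were chosen with earlier results of these data known, so these shares and ranks are a description and no test. In the array-set fit the adjusted p was 9.8e-06 for Eepd1, 0.00032 for Abcg1 and 0.0034 for Abca1, with 1.15% of probes called. In the fit without a block, the calls of Eepd1 and Abcg1 held whichever of the 8 arrays was omitted. In that fit Abca1 lost its call without LPS 1, poly(I:C) 1 or any of the 4 GW3965 arrays. Its adjusted p was then 0.12 to 0.16, with differences of 1.98 to 2.46, so its direction was kept.

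Under LPS, GW3965 gave +2.64 for Eepd1 (SE 0.32, adjusted p = 0.011), 6.24-fold, with +2.59 and +2.69 in sets A and B. Abcg1 was at +2.28 (SE 0.39, adjusted p = 0.084), 4.85-fold, and passed in the array-set fit (adjusted p = 0.0070). Abca1 was at +2.12 (SE 0.53, adjusted p = 0.47), 4.35-fold, and passed in neither fit (0.077 with the set as a block). The set values were +2.56 and +1.99 for Abcg1 and +2.69 and +1.55 for Abca1, the wider gap belonging to Abca1. limma called 0.0313% of probes (0.0209% higher), and the array-set fit 0.407%. For all 3 genes both agonist arrays lay above both LPS arrays, as for 12.3% of all probes. The call of Eepd1 without a block was lost whenever 1 of the 4 arrays was left out (adjusted p 0.064 to 0.28), with differences of 2.61 to 2.67, but it was kept in the array-set fit without any 1 of them. The LPS arrays are shared with the comparison of LPS and untreated cells.

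Under poly(I:C), GW3965 gave +2.57 for Eepd1 (SE 0.32, adjusted p = 0.015), 5.94-fold, with +2.67 and +2.47 in the sets. That was the only call of limma (0.0104% of probes). Abcg1, number 2 by p, was at +2.40 (SE 0.39, adjusted p = 0.15), 5.29-fold, and passed in the array-set fit (adjusted p = 0.014), where 0.073% of probes were called. Abca1, number 5 by p, was at +2.50 (SE 0.53, adjusted p = 0.67), 5.67-fold, with 0.094 in the array-set fit and set values of +3.03 and +1.98. Both arrays with the agonist lay above both without it for all 3 genes, as for 8.4% of probes. Without poly(I:C) 1, GW3965 with poly(I:C) 1 or GW3965 with poly(I:C) 2 the call of Eepd1 was lost (adjusted p 0.20 to 0.58), and in the array-set fit without poly(I:C) 1 or GW3965 with poly(I:C) 2 (adjusted p = 0.067 and 0.054).

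The response to GW3965 under poly(I:C) minus that under LPS was +0.38 for Abca1 (95% interval -1.23 to 2.00), +0.13 for Abcg1 (-1.07 to 1.33) and -0.07 for Eepd1 (-1.04 to 0.90). No difference between the stimuli was detectable for any of them (adjusted p = 1.00 for each in limma, which called 0% of probes, 29 of them having an unadjusted p under 0.05). The intervals hold differences of more than 1 on the log2 scale in both directions for Abca1 and Abcg1 and in the negative direction for Eepd1.

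Markers of other cell types were read beside these increases. The 7 neutrophil markers summed to 18.4 to 20.6 with GW3965 and LPS against 31.7 to 47.1 with LPS, and to 16.6 to 16.9 with GW3965 and poly(I:C) against 24.1 to 51.2 with poly(I:C). None of the 6 tested passed in limma, 2 were lower in the array-set fit, and S100a8 alone held most of the sum (13.2 to 55.5). With GW3965 the array-set fit called 0.407% of all probes under LPS, 0.073% under poly(I:C) and 1.15% in the mean effect. Ltf, Elane and Mpo were at the floor on 1, 3 and 4 of the 14 arrays. Their part in the result was not tested. The 8 macrophage markers were all below 0 in the mean effect of GW3965 (median -0.32 against -0.04 over all probes), none called. Their summed intensity was 2548 to 3371 on the 4 GW3965 arrays and 2909 to 4818 on the 4 arrays of the stimuli alone. What this means for the efflux genes was not tested.

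**Figure D2:**
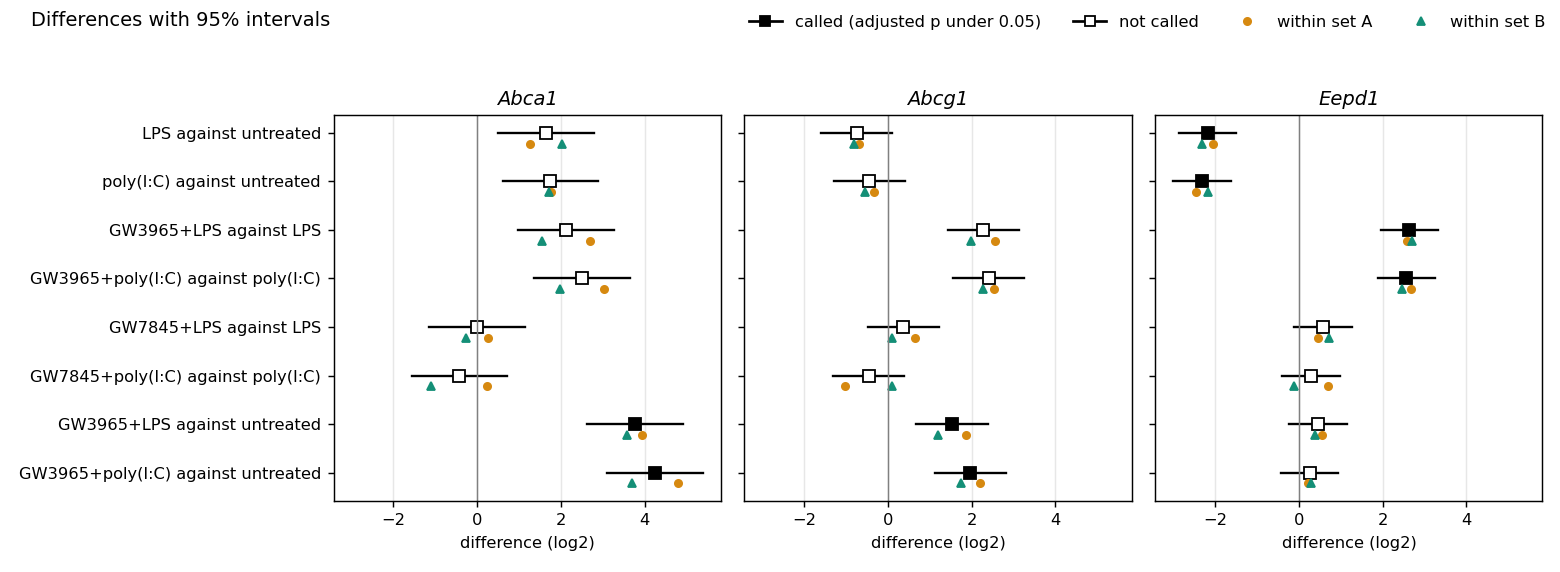
Differences in log2 level of Abca1, Abcg1 and Eepd1 (horizontal axes) for 8 comparisons (vertical axis). Squares with bars are limma's differences with 95% intervals, filled where called at an adjusted p under 0.05; circles and triangles are the differences within array sets A and B, and Eepd1 alone is called both below untreated cells under each stimulus and above the stimulus with GW3965.

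Set against untreated cells, the GW3965 groups differed from gene to gene. Abca1 was +3.77 with LPS (SE 0.53, adjusted p = 0.00046) and +4.26 with poly(I:C) (SE 0.53, adjusted p = 0.00014), 13.6-fold and 19.1-fold. Abcg1 was +1.53 (SE 0.39, adjusted p = 0.034) and +1.96 (SE 0.39, adjusted p = 0.0065), at 289% and 390% of the untreated level. Without any 1 of its 4 arrays the Abcg1 difference under LPS lost its call (adjusted p 0.070 to 0.26), as did that under poly(I:C) without untreated 1 or GW3965 with poly(I:C) 1 (0.061 and 0.067). Eepd1 was +0.46 with LPS (95% interval -0.23 to 1.15, adjusted p = 0.55) and +0.26 with poly(I:C) (-0.43 to 0.94, adjusted p = 0.88), at 138% and 119% of the untreated level. The shares of probes called were 6.06% with LPS and 6.63% with poly(I:C), and 2 of the 3 genes were called in each. With both stimulus and agonist Eepd1 thus stood close to its untreated level while both transporters stood above theirs.

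GW7845, the PPARγ agonist, was compared in the same way. Under LPS the differences were -0.00 for Abca1 (95% interval -1.14 to 1.14), +0.37 for Abcg1 (-0.48 to 1.22) and +0.58 for Eepd1 (-0.11 to 1.27). Under poly(I:C) they were -0.42 for Abca1 (-1.56 to 0.72), -0.46 for Abcg1 (-1.31 to 0.39) and +0.29 for Eepd1 (-0.40 to 0.98). No member was called, and limma called 0% of probes in each comparison (138 and 83 had an unadjusted p under 0.05). Under LPS, Abcg1 and Eepd1 lay above LPS alone on both arrays, as did 9.05% of probes. Under poly(I:C) the arrays of all 3 genes overlapped, where 6.72% of probes lay above and 6.8% below. Without replicate 1 of GW7845 with poly(I:C), the differences under poly(I:C) were -0.85 for Abca1, +0.18 for Abcg1, which changed sign, and +0.12 for Eepd1. Eepd1 had the largest mean effect over the stimuli, +0.43 (-0.05 to 0.92), with an unadjusted p of 0.076, or 0.032 in the array-set fit, neither of which survived adjustment (adjusted p = 1.00 and 0.82 in limma). For Abca1 the mean was -0.21 (-1.02 to 0.60) and for Abcg1 -0.04 (-0.64 to 0.56), so an increase as large as that under GW3965 lies outside all 3 intervals. Without the same array the means were -0.42 for Abca1, +0.27 for Abcg1 and +0.35 for Eepd1, none called.

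With GW7845 the loss of Eepd1 from the untreated level was still called, -1.60 with LPS (SE 0.32, adjusted p = 0.0065) and -2.03 with poly(I:C) (SE 0.32, adjusted p = 0.00088). It stood at 33.1% and 24.5% of untreated, where 6.55% and 7.54% of probes were called. The first lost its call without GW7845 with LPS 2 or untreated 2 (adjusted p = 0.070 and 0.053). Abca1 was +1.65 and +1.33, called under LPS in the array-set fit alone (adjusted p = 0.024). Abcg1 was -0.38 and -0.90 and passed in neither fit. Its difference under poly(I:C) was -0.26 without GW7845 with poly(I:C) 1 (adjusted p = 0.92) and -1.53 without GW7845 with poly(I:C) 2 (adjusted p = 0.032). Without the first of these arrays Abca1 was at +0.91 and Eepd1 at -2.20, still called (adjusted p = 0.0032).

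The agonists were also set against each other directly under each stimulus, as given, since doses are not known. GW3965 minus GW7845 under poly(I:C) was +2.92 for Abca1 (SE 0.53, adjusted p = 0.13), +2.86 for Abcg1 (SE 0.39, adjusted p = 0.019) and +2.28 for Eepd1 (SE 0.32, adjusted p = 0.019). In the array-set fit all 3 passed (adjusted p = 0.020, 0.0014 and 0.0014), where the fits called 0.0417% and 0.104% of probes. Without replicate 1 of GW7845 with poly(I:C), Abca1 was +3.35 (adjusted p = 0.20), Abcg1 +2.23 (adjusted p = 0.16) and Eepd1 +2.45 (adjusted p = 0.096), and the calls of Abcg1 and Eepd1 were also lost without either GW3965 array. Under LPS the differences were +2.12 for Abca1, +1.91 for Abcg1 and +2.06 for Eepd1. None passed in limma (adjusted p = 1.00, 0.67 and 0.084), which called 0.0104% of probes, and Eepd1 alone passed in the array-set fit (adjusted p = 0.0046). In all 6 of these comparisons the arrays of GW3965 lay above those of GW7845, as for 12.9% of probes under LPS and 8.57% under poly(I:C).

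Across the 14 arrays, after the mean of each array set was removed, the levels of Abcg1 and Eepd1 had a Pearson r of 0.83, those of Abca1 and Abcg1 0.74 and those of Abca1 and Eepd1 0.45. Arrays of a group share a treatment, so these values describe 7 pairs of arrays and not 14 separate points. Over the 8 stimulated arrays without GW3965 the same pairs had r of -0.15, -0.39 and 0.15. The likeness of the 3 genes thus lay between groups with and without GW3965 and not among the other stimulated arrays.

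Genes with the most similar profiles were sought among 8597 other probes with 1 symbol. Abcg1 was most like Fasn, the fatty acid synthase (r = 0.96), the stearoyl-CoA desaturase gene Scd2 (0.95), Cd5l, a secreted macrophage protein known as an LXR target (0.94), the lipid kinase gene Pik3cb (0.91) and Mid1ip1, which promotes fatty acid synthesis (0.90). Eepd1 was most like Mid1ip1 (0.95), the carbonyl reductase gene Cbr3 (0.94), Armcx2 (0.91), the prostaglandin E2 receptor gene Ptger2 (0.90) and the cytochrome b5 reductase gene Cyb5r1 (0.90). Mean log2 levels of Cbr3 were 1.77 untreated, 0.55 with LPS, 0.51 with poly(I:C), and 1.73 and 1.53 with GW3965 added, a course in which, as for Eepd1, the GW3965 groups came back to near the untreated level. Abca1 had no probe above 0.9. Its closest were the kinesin light chain gene Klc1 (0.89), the BH3-only gene Pmaip1 (0.89), Cdr2 (0.88), the clock gene Cry1 (0.86) and the transcription factor gene Runx1 (0.86), whose levels spanned less than those of Abca1, for Klc1 from 1.52 untreated to 2.49 with GW3965 and poly(I:C). Mid1ip1 was on the lists of both Abcg1 and Eepd1, and no gene was shared with that of Abca1.

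**Figure D3:**
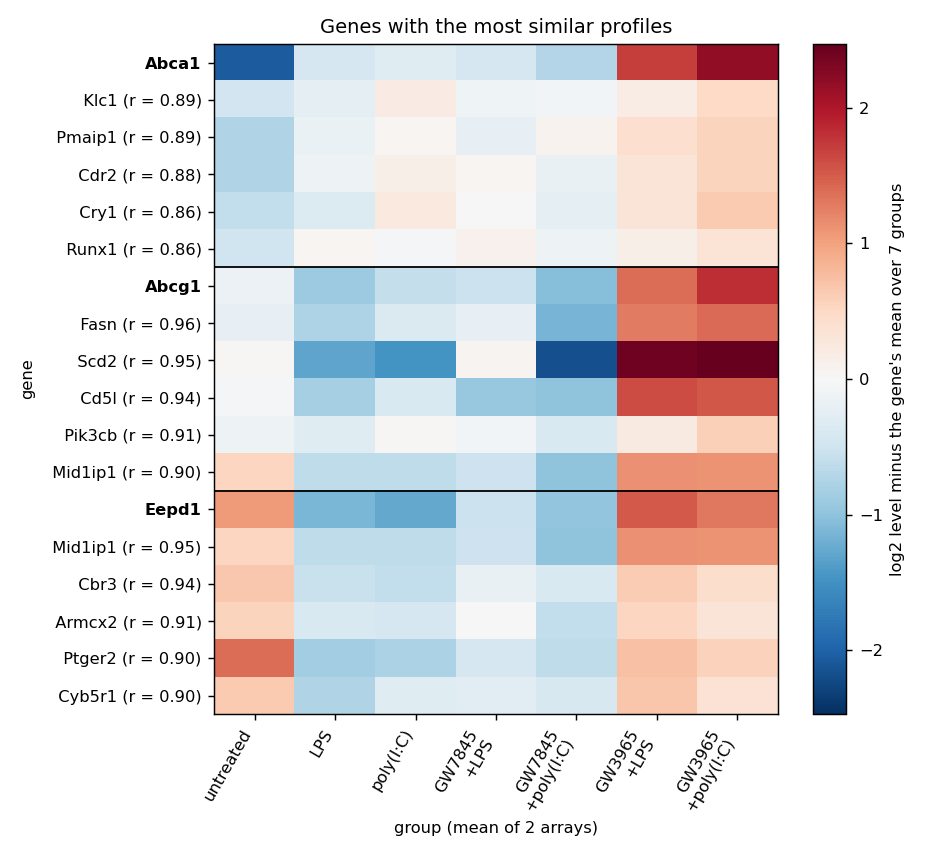
Mean log2 level of each gene in each group (columns) minus its mean over the 7 groups (colour scale), for Abca1, Abcg1 and Eepd1 in bold and under each the 5 genes of highest Pearson r over 14 arrays with array-set means removed. The genes under Abcg1 and Eepd1 are darkest red in the GW3965 columns or in the untreated column, while those under Abca1 are lowest in untreated cells and highest with GW3965 and poly(I:C).

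Other LXR targets showed a part of this response. The list of LXR targets was chosen with earlier results of these data known, so counts among its genes are a description and no test. Of 34 listed genes besides the 3, 24 were measured. In the mean effect of GW3965, 4 were called higher and none lower, where 0.198% of all probes were called (0.115% higher), with 15 of 24 above 0 and a median of +0.44 against -0.04 over all probes. They were Cd5l (+2.18, SE 0.25, adjusted p = 0.0029), Scd2 (+3.83, SE 0.49, adjusted p = 0.0045), Fasn (+1.89, SE 0.31, adjusted p = 0.025) and Mid1ip1 (+1.75, SE 0.29, adjusted p = 0.025). Of these, 3 serve fatty acid synthesis, whereas Cd5l is secreted. The array-set fit, with 1.15% of probes called, had 7 higher, adding Tmem86a, a lysoplasmalogenase gene (+1.50, adjusted p = 0.0017), the phospholipid transfer protein gene Pltp (+1.40, adjusted p = 0.031) and the lipoprotein lipase gene Lpl (+1.07, adjusted p = 0.011). Apoc1, an apolipoprotein gene, was at +1.85 (SE 0.55, adjusted p = 0.49) and passed in neither fit. Scd2 exceeded the efflux genes in size, with more spread.

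Under LPS, 1 of the 24 was called with GW3965 (Cd5l, +2.44, adjusted p = 0.029) and 5 in the array-set fit, against 0.0313% and 0.407% of all probes, with a median of +0.69 against +0.03 over all probes. Under poly(I:C) limma called none and the array-set fit 4, against 0.0104% and 0.073% of all probes, with a median of +0.10 against -0.10. By the promoter search used above, Fasn and Mid1ip1 each held a match with 3 mismatches, and Cd5l, Tmem86a and Pltp held none. Scd2 and Lpl had no window to search. Of all genes with a window, 20.9% held such a match, so these matches describe the sequences only. With the stimuli alone, Tmem86a was the 1 target of 24 called, where 7.8% and 8.86% of all probes were, at -2.67 with LPS (adjusted p = 0.00056) and -3.09 with poly(I:C) (adjusted p = 0.00014), and it is named after its values were seen. Like Eepd1 it fell with each stimulus. The array-set fit, which called 17.8% and 18.7% of probes, also called Mid1ip1 lower with LPS (-1.17, adjusted p = 0.0048) and poly(I:C) (-1.17, adjusted p = 0.0044) and Cd5l with LPS (-0.78, adjusted p = 0.033). With GW7845 none of the 24 was called under either stimulus or in their mean (median -0.06 against -0.01 over all probes). There limma called 0% of all probes.

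**Figure D4:**
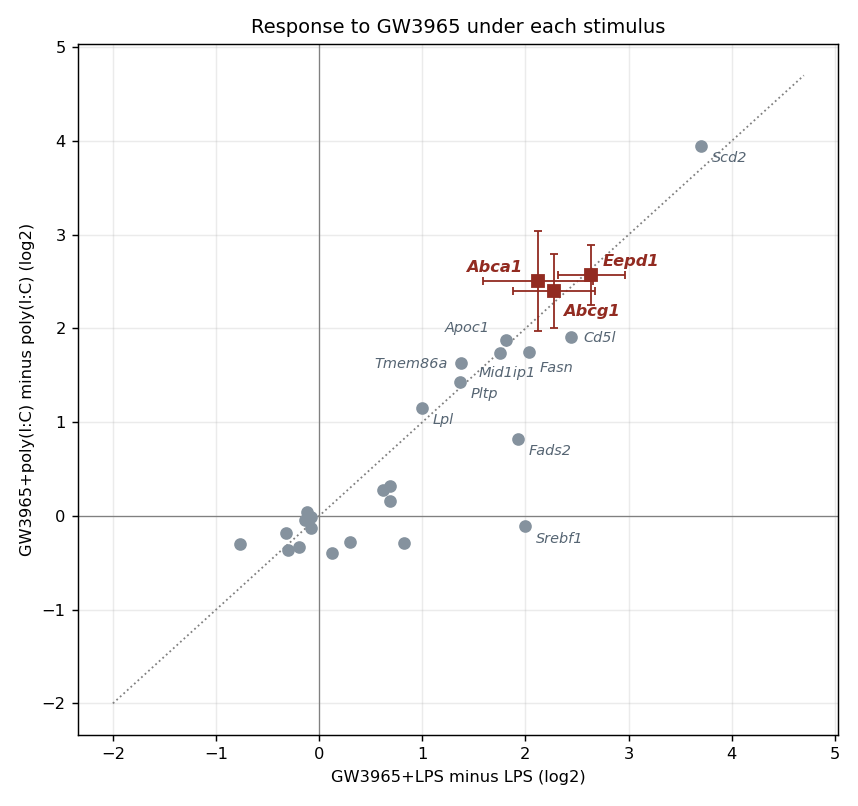
Difference with GW3965 under LPS (horizontal axis, log2) against that under poly(I:C) (vertical axis, log2), with Abca1, Abcg1 and Eepd1 as squares with bars of 1 SE and 24 other LXR targets as circles, named where a value exceeds 1; the dotted line marks equal differences. The efflux genes lie close to the line above 2 on both axes, and Srebf1, for which all 4 untreated and LPS arrays were at the floor of measurement, is plotted at a lower bound under LPS. Srebf1 was at the floor on 7 of the 14 arrays, poly(I:C) 2 among them, so its position under poly(I:C) is approximate as well.

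The receptors were read next. No probe was named for the LXRβ gene Nr1h2. The LXRα gene Nr1h3 had values on the 7 arrays of set A alone, 8.90 untreated, 15.2 with LPS, 12.8 with poly(I:C), 8.96 and 10.4 with GW3965 under LPS and poly(I:C), and 12.4 and 21.7 with GW7845 under them. With 1 array a group these values have no replicate check. The retinoid X receptor genes Rxra and Rxrb passed in none of the stimulus or agonist comparisons given here, with the mean effect of GW3965 at -0.15 (SE 0.40) and +0.60 (SE 0.60). Rxrg fell with LPS (-1.81, SE 0.34, adjusted p = 0.0036) and poly(I:C) (-1.50, SE 0.34, adjusted p = 0.012). The gene of the receptor that GW7845 activates, Pparg, was at -4.16 with LPS (adjusted p = 7.8e-06) and -3.96 with poly(I:C) (adjusted p = 1.1e-05). Pparg was at +1.03 in the mean effect of GW3965 (SE 0.27, adjusted p = 0.37, and 0.056 with the set as a block) and +0.02 in that of GW7845 (SE 0.27). Of the 10 receptor and coregulator genes measured besides Nr1h3, none was called in the mean effect of either agonist. Over all probes limma called 0.198% with GW3965 and 0% with GW7845.

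Among 5 measured genes that make or remove oxysterols, the natural LXR ligands, Ch25h and Cyp27a1 changed with the stimuli, in opposite directions. Over all probes limma called 7.8% with LPS, 8.86% with poly(I:C) and 0.198% in the mean effect of GW3965. Ch25h, which makes 25-hydroxycholesterol, rose by +6.63 with LPS and +7.41 with poly(I:C). Its untreated intensities were low and apart, 0.305 and 0.103 at percentiles 29.9 and 22.7, so the size of this rise is approximate. Cyp27a1, which makes 27-hydroxycholesterol, was called at -2.20 and -2.25. In the mean effect of GW3965, Ch25h fell by 3.19 (SE 0.48, adjusted p = 0.018), against the direction of the efflux genes, and Cyp27a1 was at -0.16 (SE 0.24). The other three passed in none of these comparisons.

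As a group, the 9 other measured transporters of the ABC subfamilies A and G did not rise with GW3965 as Abca1 and Abcg1 did. Their median in its mean effect was -0.09 against -0.04 over all probes. None was called with either agonist, in either fit. Over all probes limma called 0.198% and the array-set fit 1.15% in the mean effect of GW3965, and 0% and 0.0104% in that of GW7845. The absence of a call therefore does not set these transporters apart from other probes. The values with the smallest p were Abca3 at -0.21 (SE 0.26), Abca8b at -0.44 (SE 0.75), Abca2 at -0.24 (SE 0.48) and Abcg3 at +0.28 (SE 0.65). With the stimuli none passed in limma, which called 7.8% of all probes with LPS and 8.86% with poly(I:C). The array-set fit called 17.8% and 18.7%. In the array-set fit Abcg3 fell with LPS (-2.35, adjusted p = 0.032), and Abcg3 (-2.68, adjusted p = 0.015) and Abcg2 (-1.42, adjusted p = 0.031) fell with poly(I:C). Of 10 measured genes of sterol synthesis under SREBP-2 and 12 of cholesterol uptake, storage and transport inside the cell, none was called in the mean effect of GW3965 or of GW7845 in either fit. The shares of all probes called were again 0.198% and 1.15% with GW3965 and 0% and 0.0104% with GW7845, so these genes are not set apart either. The medians were -0.17 and -0.20 with GW3965, against -0.04 over all probes. The scavenger receptor gene Scarb1, another route of cholesterol efflux, was at +0.69 (SE 0.31, adjusted p = 1.00, and 0.22 with the set as a block).

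PPARγ targets were read as the counterpart for GW7845. Of 12 measured, none was called under either stimulus or in the mean, where the median was +0.21 against -0.01 over all probes. The smallest p belonged to the lipid droplet coat gene Plin2 (+0.76, SE 0.28), Acaa2 (+0.80, SE 0.37), Fabp5 (-0.38, SE 0.35) and Fabp4 (+0.27, SE 0.29), each at an adjusted p of 1.00 in limma. With GW7845 limma called 0% of all probes under LPS, under poly(I:C) and in the mean. The absence of a call therefore does not set the efflux genes or the listed PPARγ targets apart from other probes. It does not show that they failed to respond.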

How the data were processed

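RNA (0.5 µg of total RNA per array, per the labels' protocols) was read on 14 one-colour arrays. The deposited values are linear intensities that the authors had scaled, and the files show a median of 1 to 1.0007 on each array. The scanner, the background correction and the way of scaling are not described in the labels. Intensities under the 5th percentile of the positive values (0.0686) were set to it, and log2 was taken. Probes above the 20th percentile of their array on at least 2 arrays were kept (9584 of 10012). A model of 7 group means was fitted with limma 3.58.1 in R 4.3.3 (7 residual degrees of freedom, empirical Bayes with a trend, two-sided, Benjamini-Hochberg over all kept probes), and the array-set fit left 6. The fit was also run on simulated data for GW3965 with LPS against LPS alone, and the outcome of that run is not used here. The array sets were told apart by the largest gap in the 10th percentile of intensity, not by a label. Without a block, p-values measure the spread between the 2 arrays of a group, which includes any shift between the array sets. The array-set fit takes that shift out. It called 1703 probes for LPS against untreated, where limma without a block called 748. A difference not called without a block is therefore not shown to be absent. Precision is limited by the 2 arrays of a group.

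Gene symbols came from the platform annotation: 8983 probes had 1 symbol, 1 had several and 1028 had none, and 8975 of the first matched the RefSeq gene table by gene identifier, with 0 symbols changed. The 3 genes and all lists were chosen with earlier results of these data known. Named were the 3 genes, the 5 probes most like each, the receptor genes, and in agonist comparisons at most 6 called members of a list and the 4 uncalled ones of smallest p. List genes named for the stimuli alone were chosen after their values were seen. A list holds 1 probe per gene.

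Replicate 1 lay in set A in 6 of 7 groups, the exception being GW7845 with LPS, so the replicate number nearly coincides with the array set. Deviations of same-numbered arrays of different groups correlated at -0.54 to 0.67, over 0.1 in 30 of 42 pairs, and those of arrays of one set at 0.354 to 0.672 in all 42. The numbers were therefore not taken as a pairing across all 7 groups. Alternatives were quantile normalization, another floor (1st percentile), a pseudocount of 0.1, no filter, no trend, only the compared arrays, the replicate number or the array set as a block, and the omission of single arrays. Promoter windows are from RefSeq.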

Additional observations from a re-analysis of the deposited data

How the results depend on the processing

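With the replicate number as a block, which equals the array set in 6 of 7 groups, uncalled differences became called for Abca1 with LPS (1.65) and poly(I:C) (1.75) against untreated, Abcg1 with GW3965 under LPS (2.28) and poly(I:C) (2.40), Eepd1 between the agonists under LPS (2.06) and Abca1 between them under poly(I:C) (2.92). This replicate block called 13 probes for GW3965 under LPS against 3 without it, 3 against 1 under poly(I:C) and 35 against 19 in the mean. The array set as a block called the same 6 and Abca1 with GW7845 and LPS against untreated (1.65), with 39, 7 and 110 probes. After quantile normalization as well, an alternative chosen after seeing the data, Abcg1 was called at 2.44 and 2.55.

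Fitted to the compared arrays alone, Abca1 (2.12) and Abcg1 (2.28) with GW3965 under LPS, Abcg1 under poly(I:C) (2.40), and Abca1 (2.12), Abcg1 (1.91) and Eepd1 (2.06) between the agonists under LPS became called, while Abcg1 (2.86) and Eepd1 (2.28) between them under poly(I:C) lost their calls. Without the trend, calls were lost for Eepd1 with GW3965 (2.64 and 2.57), Abca1 in the mean (2.31), Abcg1 (2.86) and Eepd1 (2.28) between the agonists under poly(I:C) and Abcg1 with GW3965 and LPS against untreated (1.53). Without GW7845 with poly(I:C) 1, Abca1 with poly(I:C) (1.75), Abcg1 with GW3965 (2.28 and 2.40) and Eepd1 between the agonists under LPS (2.06) became called, Abcg1 (2.23) and Eepd1 (2.45) between them under poly(I:C) lost their calls, and Abcg1 turned to 0.18 with GW7845 under poly(I:C) and to 0.27 in the mean. Quantile normalization turned Abca1 with GW7845 under LPS to 0.0082 and Abcg1 in the mean to 0.043. The causes were not tested.

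Without single arrays, with or without the set as a block, differences ran as follows, and the arrays whose omission ended a call are named above. For Abca1 they were 0.99 to 2.31 with LPS (called without LPS 1), -0.56 to 0.76 for poly(I:C) minus LPS, 1.98 to 2.64 for the GW3965 mean, -0.28 to 1.04 for its difference between stimuli, -0.66 to 0.66 and -0.85 to 0.0060 for GW7845 under LPS and poly(I:C), -0.54 to 0.12 for its mean and -1.08 to 0.24 for its difference between stimuli. For Abcg1 they were 1.98 to 2.58 with GW3965 under LPS (called without GW3965 with LPS 2 in the array-set fit), -0.041 to 0.29 for the difference between stimuli, -1.09 to 0.18 with GW7845 under poly(I:C), -0.36 to 0.27 in its mean, 2.23 to 3.49 between the agonists under poly(I:C), and against untreated 1.35 to 1.71 and 1.79 to 2.14 for GW3965 and -1.53 to -0.26 for GW7845 with poly(I:C) (called without its replicate 2). For Eepd1 they were -0.37 to 0.10 for poly(I:C) minus LPS, 2.54 to 2.74 and 2.33 to 2.81 with GW3965, -0.31 to 0.17 for its difference between stimuli, 2.11 to 2.45 between the agonists under poly(I:C) and -1.70 to -1.49 with GW7845 and LPS against untreated.

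Counts of probes called with the set as a block were 1703 against 748 for LPS, 1788 against 849 for poly(I:C), and 1580 to 1688 against 581 to 723 for the agonist groups, all against untreated. The compared arrays alone gave 410, 457 and, for GW7845 with poly(I:C), 407. They gave 61 for GW3965 under LPS and 50 against 1 between the agonists under it, and the fit without the trend gave 3 against 19 in the GW3965 mean. The lower floor, the pseudocount and the missing filter changed no call of the 3 genes. Quantile normalization shifted the median difference by -0.14 with LPS and -0.17 with poly(I:C). With 2 arrays a group, intervals of single comparisons span over 1 on the log2 scale.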

Other observations

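Of 12 measured genes of cholesterol uptake, storage and transport inside the cell, limma called 3 higher with LPS and the same 3 with poly(I:C), and none lower. Over all probes it called 5.21% higher and 2.6% lower with LPS and 6.08% and 2.78% with poly(I:C). Cav1, which encodes the caveolar coat protein, was at +3.74 and +4.04 (adjusted p = 8.7e-05 and 3.7e-05). With GW7845, Cav1 was at +1.26 under LPS (95% interval 0.30 to 2.23) and +0.86 in the mean (0.18 to 1.54), neither called (adjusted p = 1.00 in limma). The scavenger receptor gene Msr1 was at +1.34 and +1.25 (adjusted p = 0.028 and 0.037) and Stard3, which encodes a sterol transfer protein of late endosomes, at +1.33 and +1.62 (adjusted p = 0.039 and 0.011). Scarb1 was at -1.23 and -1.42 (adjusted p = 0.12 and 0.063), and passed with the array set as a block (adjusted p = 0.020 and 0.0077). These genes were picked after their values were seen, and both comparisons share the untreated arrays.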
